A study of Mus musculus with 33 samples.

Results

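The 9 genes described here encode cell surface proteins with which mouse mammary stem, progenitor and luminal cells are sorted. They are Epcam, Cd24a, Prom1, Kit, Ly6a, Procr, Cd14, Cd44 and Tspan8, chosen by symbol out of the 30170 gene symbols in 4 deposited expression tables. All 9 had a row in 3 tables. The table of guide RNA transduced cells held 8 of them and had no Tspan8 row.

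RNA-seq libraries of 33 samples were used. HC11 is a mouse mammary epithelial cell line. Its first table held 3 libraries of cells given the solvent DMSO and 3 of cells given 300 nM Trichostatin A, an inhibitor of histone deacetylases, for 24 h. The second held 2 libraries of HC11 cells with the guide RNA sgScr #1 and 2 with sgTrps1 #1, so each arm rested on 1 guide. The third held primary mammary organoids of 3 genotypes, all transduced with adenoviral Cre (AdCre), grown in Matrigel and harvested at day 14 or day 28, with 2 libraries per genotype and day. The genotypes were Cdh1F/F;Trps1+/+, Cdh1F/F;Trps1F/F and Cdh1+/F;Trps1F/F, called here Trps1+/+ organoids, Trps1F/F organoids and Cdh1+/F organoids. Cdh1 encodes E-cadherin, and every organoid carried at least 1 floxed Cdh1 allele. The last table held 11 tumors of 9 mice. Of these, 3 mice were WAP-cre;Cdh1F/F;Trps1+/+ and 6 were WAP-cre;Cdh1F/F;Trps1F/F. In both, a Cre driven by the promoter of the milk protein gene Wap acted on floxed Cdh1, and in the second genotype on floxed Trps1 too. The submitters divided the Trps1F/F tumors into subgroup_one (4 tumors of 3 mice), subgroup_two (2 tumors of 2 mice) and subgroup_three (2 tumors of 2 mice). The sources used here do not give how the subgroups were defined or the ages of the mice. Mouse 18LCO025 gave 2 tumors to subgroup_one and 1 to subgroup_three.

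Mammary epithelium has a luminal layer, which makes milk and contains hormone-sensing cells and progenitors, and a contractile basal layer. Sorting by EpCAM and CD24 separates these layers from each other and from stroma. KIT and CD14 mark luminal progenitors, and PROM1 and LY6A mark hormone-sensing luminal cells. PROCR and TSPAN8 have been used to divide basal cells, and CD44 is high in basal and stromal cells. Several are also made by other cells of the gland: Kit by mast cells, Cd14 by macrophages, Ly6a and Procr by endothelium, and Cd44 by leukocytes and fibroblasts. TRPS1 represses transcription and binds DNA through a GATA-type zinc finger.

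Promoter windows are shown for Epcam, Prom1 and Tspan8, which rose together in Trps1F/F organoids and in subgroup_one tumors. Each window holds the 250 bases before and the 50 bases after a RefSeq transcript start (GRCm38.p6), read on the gene's own strand. RefSeq promoter entries were found for 6 of the 9 genes. Capitals mark motifs searched on both strands. A GATA motif was searched as AGATAA, in a second form as TGATAA, in another form as AGATAG and in the last form as TGATAG. An E-box was searched as CACCTG.
Epcam, chr17:87635729-87636028, + strand: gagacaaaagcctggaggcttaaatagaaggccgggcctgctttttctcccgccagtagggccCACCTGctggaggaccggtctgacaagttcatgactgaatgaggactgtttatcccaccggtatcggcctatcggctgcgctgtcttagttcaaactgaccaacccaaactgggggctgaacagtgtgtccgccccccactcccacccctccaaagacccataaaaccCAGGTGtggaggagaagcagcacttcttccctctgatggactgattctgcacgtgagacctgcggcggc
Prom1, chr5:44101687-44101986, - strand: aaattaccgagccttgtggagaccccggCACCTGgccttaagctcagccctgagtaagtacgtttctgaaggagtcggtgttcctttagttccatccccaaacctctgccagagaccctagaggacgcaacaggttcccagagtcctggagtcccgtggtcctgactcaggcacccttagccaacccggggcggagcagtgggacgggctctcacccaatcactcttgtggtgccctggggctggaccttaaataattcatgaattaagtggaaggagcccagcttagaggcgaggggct
Tspan8, chr10:115817034-115817333, + strand: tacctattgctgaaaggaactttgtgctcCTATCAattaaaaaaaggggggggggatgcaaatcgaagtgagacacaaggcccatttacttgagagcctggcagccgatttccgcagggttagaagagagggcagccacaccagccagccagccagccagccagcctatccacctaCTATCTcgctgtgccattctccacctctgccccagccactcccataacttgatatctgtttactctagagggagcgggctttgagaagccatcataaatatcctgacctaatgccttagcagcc
The Tspan8 window held TGATAG 221 bases and AGATAG 74 bases upstream of the start, both on the opposite strand. The Epcam window held CACCTG 187 bases upstream, and again on the opposite strand 19 bases upstream. The printed Prom1 window held CACCTG 222 bases upstream, and the window of a second Prom1 start, at chr5:44094719-44095018, held AGATAG 180 bases upstream on the opposite strand. Of 32851 promoter windows of the same length, 29.8% held at least 1 of the GATA forms and 20.2% held CACCTG. These matches describe the letters of the windows only.

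Epcam lies on chromosome 17 (87635979-87651129), Ly6a on chromosome 15 (74994877-74998031) and Cd14 on chromosome 18 (36725067-36726798). Cd24a (43578284-43584265) and Tspan8 (115816832-115849893) are both on chromosome 10. Prom1 (43993620-44102032) and Kit (75574916-75656722) are both on chromosome 5. Procr (155751117-155755471) and Cd44 (102811141-102901665) are both on chromosome 2. These are whole protein-coding genes in GRCm38 with GENCODE M21. The counting was not stated to use strand. On the other strand, Gm16401 overlaps Prom1, Gm23731 overlaps Cd44 and 4930422I22Rik overlaps Tspan8. These are overlaps of whole gene spans, introns included. Whether exons overlap was not checked, so whether reads of these genes mix is not known. Gm42716 overlaps Prom1 on its own strand. Ly6a has close relatives beside it and Cd24a has copies elsewhere in the genome. How shared reads were counted is not given, so the levels of these 2 genes are uncertain to that extent.

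Levels below are log2(normalized count + 1) as deposited, and differences are in the same log2 unit. The tables hold 17809076 to 25614664 reads per library for Trichostatin A, 21374526 to 38773075 for the guides, 14858175 to 30341900 for organoids and 18320414 to 24225027 for tumors. A count of 3 reads, taken as the floor, was worth 1.551 to 4.505 normalized counts. A gene was tested where its normalized count + 1 reached 10 in enough libraries to fill the smallest group, and called where its adjusted p was under 0.05. Labels name separate mice for the tumors only, so elsewhere p-values measure the spread between libraries, which may be technical. Trps1 lay at 13.94 to 14.02 with DMSO and 10.90 to 10.97 with Trichostatin A. With the guides it lay at 13.80 to 13.89 for sgScr and 13.85 to 13.91 for sgTrps1, and a transcript level does not check a cutting guide. In organoids it lay at 13.51 to 13.96 for Trps1+/+, 11.05 to 11.39 for Trps1F/F and 9.45 to 10.04 for Cdh1+/F. In tumors it lay at 11.46 to 12.94 for Trps1+/+, 9.90 to 11.88 for subgroup_one, 10.24 to 11.13 for subgroup_two and 11.91 to 12.63 for subgroup_three. The first and the last of these subgroups overlapped the tumors labelled Trps1+/+.

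In HC11 cells, Trichostatin A went with lower Ly6a, Cd14 and Cd44 and slightly higher Procr and Epcam, while Cd24a did not pass the test. Of the 6 members tested, 5 were called, 2 higher and 3 lower, beside 85.2% of all 13035 genes tested. The members' median difference was -0.47 and that of all genes 0.023. A count of called members is therefore close to the background here, and the sizes carry the description. The order per kilobase of transcript in DMSO cells was led by Cd24a, at 11000 normalized counts per kilobase, and Epcam, at 3400. Kit, Tspan8 and Prom1 lay under 1.

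Ly6a, a GPI-anchored protein that interferon induces, lay at 11.19, 10.94 and 10.92 with DMSO and at 8.07, 8.26 and 8.30 with Trichostatin A. The groups were far apart, and Ly6a fell by 2.80 (SE 0.082, n = 3 and 3, adjusted p = 2.38e-11). The interferon response list did not move with it: 7 of its 10 tested genes rose and 3 fell, with a median of 1.79, and its summed level went from 1600 to 1700 normalized counts up to 3190 to 3280. Among that list, Rsad2 rose by 7.66 and Ifit2 fell by 1.76.

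Cd14, the co-receptor for bacterial lipopolysaccharide, lay at 5.65, 5.52 and 6.01 with DMSO and at 4.64, 4.52 and 4.31 with Trichostatin A. It fell by 1.24 (SE 0.204, adjusted p = 0.000121). The summed macrophage and leukocyte markers went the other way, from 105 to 127 normalized counts up to 380 to 399. That list was low in these cells: 4 of its 8 genes exceeded 3 reads in any DMSO library, and 7 with Trichostatin A. Only 2 of them could be tested, and 1 was called, higher. Cd44, the hyaluronan receptor, lay at 12.08 to 12.14 with DMSO and 11.22 to 11.24 with Trichostatin A, and fell by 0.88 (SE 0.0349, adjusted p = 2.92e-10).

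Procr, the endothelial receptor for protein C, lay at 4.94, 5.25 and 4.87 with DMSO and at 5.52, 5.62 and 5.34 with Trichostatin A. The groups did not overlap, and Procr rose by 0.48 (SE 0.187, adjusted p = 0.0323). That call rested on few reads and did not pass without DMSO replicate 1 (adjusted p = 0.0702), DMSO replicate 3 (0.0853), Trichostatin A replicate 1 (0.0809) or Trichostatin A replicate 2 (0.117). It did not pass with no filter (0.0635), and under quantile normalization its difference turned to -0.19. The authors' deposited table gave it an adjusted p of 0.173.

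Epcam, an epithelial adhesion molecule, lay at 12.82 to 12.91 with DMSO and 12.95 to 12.99 with Trichostatin A. It rose by 0.10 (SE 0.0373, adjusted p = 0.0297). This difference no longer passed without DMSO replicate 3 (adjusted p = 0.118) or Trichostatin A replicate 1 (0.0587), 2 (0.056) or 3 (0.0798), nor with no variance trend (0.0759) or with the replicate number as a block (0.0617). Cd24a, a small GPI-anchored sialoglycoprotein, lay at 14.75 to 14.83 and 14.71 to 14.80, a difference of -0.05 with adjusted p = 0.322. Under quantile normalization Cd24a passed (-0.15, adjusted p = 0.00744).

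The other 3 members were near the floor in HC11. Kit, the receptor for stem cell factor, had 8, 7 and 4 reads with DMSO and 2, 1 and 1 with Trichostatin A, and the authors' deposited table gave it -2.418 with adjusted p = 0.0449. Prom1 had at most 2 reads in any of the 6 libraries. Tspan8, a tetraspanin, had at most 4. These genes lay below the level set for testing and were not tested, so no call was made on their differences.

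Of 16 tested genes on a list of other mammary sorting antigens, 3 rose and 10 fell, with a median of -0.74. Among them Cd200 fell by 3.52 and Mme by 2.18. Of 18 tested ligands and partners of the 9 proteins, 6 rose and 12 fell, with a median of -0.62. They included Has2, which makes the CD44 ligand hyaluronan and fell by 1.73, and Spp1, whose product osteopontin binds CD44 and which rose by 1.72.

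**Figure D1:**
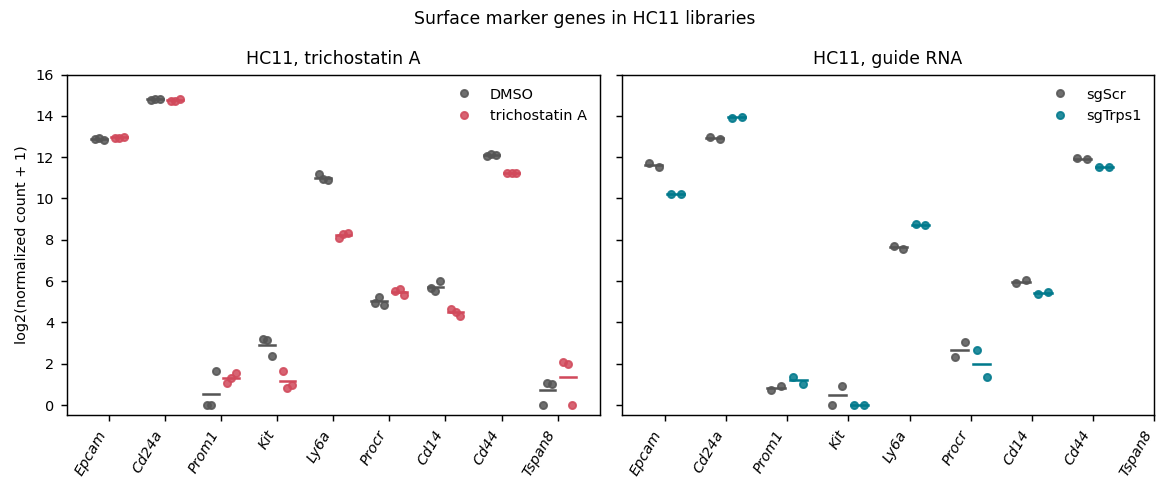
Level of each gene in every HC11 library, as log2(normalized count + 1) on the vertical axis, for Trichostatin A against DMSO (left) and sgTrps1 against sgScr (right); lines are group means. Ly6a stands lower with Trichostatin A and higher with sgTrps1, and Prom1 lies at 1.63 or less in every library.

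With the Trps1 guide, Epcam was lower and Cd24a and Ly6a were higher than with the control guide, and Cd14 and Cd44 were slightly lower. All 5 members that could be tested were called, 2 higher and 3 lower, beside 67.0% of all 12552 genes tested. Their median difference was -0.41 and that of all genes 0.017.

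Epcam lay at 11.71 and 11.53 with sgScr and at 10.24 and 10.20 with sgTrps1. It fell by 1.403 (SE 0.0665, n = 2 and 2, adjusted p = 6.87e-10). The epithelial list beside it did not move one way: 2 of its 4 tested genes rose and 2 fell, and its summed level was 10600 to 11100 normalized counts with sgScr and 13400 with sgTrps1. Of this list, Krt18 was at 0 in the sgScr libraries.

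Cd24a lay at 12.96 and 12.87 with sgScr and at 13.91 and 13.93 with sgTrps1. It rose by 1.01 (SE 0.0719, adjusted p = 3.82e-08). Genes of chromosome 10, where Cd24a lies, stood higher as a whole in the sgTrps1 libraries: the median of 574 tested genes there was 0.418, and 80.3% of them were positive. With every library shifted by its own median over the chromosome 10 genes, the Cd24a difference was 0.598 (adjusted p = 4.72e-07).

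Ly6a lay at 7.71 and 7.56 with sgScr and at 8.75 and 8.71 with sgTrps1. It rose by 1.10 (SE 0.0909, adjusted p = 1.62e-07). All 12 genes of the interferon response list rose as well, with a median of 3.18, and their summed level went from 1140 normalized counts to between 4790 and 5470. The part of this list in the Ly6a difference was not tested.

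Cd14 lay at 5.91 and 6.03 with sgScr and at 5.36 and 5.47 with sgTrps1. It fell by 0.55 (adjusted p = 0.0109). Without sgTrps1 replicate 1 the adjusted p was 0.0959, and the authors' deposited table gave 0.138. Cd44 lay at 11.95 and 11.92 with sgScr and at 11.50 and 11.55 with sgTrps1, and fell by 0.41 (adjusted p = 2.63e-05).

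Kit had 0 and 1 reads with sgScr and none with sgTrps1. Prom1 had 1 and 1 reads with sgScr and 3 and 2 with sgTrps1. Procr had 6 and 8 against 10 and 3. None of these 3 genes was tested. The other sorting antigens were split, with 5 of 13 tested genes higher and 5 lower. Ly6d rose by 2.55 and Mme, which fell with Trichostatin A, rose by 2.47. Of 15 tested ligands and partners 2 rose and 6 fell, and Spp1 fell by 4.40.

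All 9 members were well above the floor in organoids. Trps1F/F organoids had more Epcam, Prom1, Tspan8 and Cd24a than Trps1+/+ organoids on both days. At day 28 they also had more Ly6a. Epcam and Cd24a led the order per kilobase in Trps1+/+ organoids of day 14, at 4550 and 4170 normalized counts per kilobase, and Prom1 (181) and Procr (108) closed it. In organoids and tumors, which hold several cell types, fewer cells of a type and less RNA per cell cannot be told apart.

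At day 14, 6 of the 9 members were called between Trps1F/F and Trps1+/+ organoids, 4 higher and 2 lower, beside 32.4% of 15861 genes. The members' median was -0.06. At day 28, 7 were called, 6 higher and 1 lower, beside 43.2% of genes, with a median of 0.97 against -0.036 for all genes. Between Cdh1+/F and Trps1+/+ organoids, 5 were called on each day, 3 higher and 2 lower, beside 36.3% of genes at day 14 and 53.3% at day 28. The latter share was split 53.7% higher to the rest lower, and 41.8% higher under quantile normalization. These comparisons share the Trps1+/+ libraries, so their values stand side by side and are not 2 pieces of evidence.

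Between Trps1F/F and Cdh1+/F organoids, which share the floxed Trps1 alleles and differ in the label of Cdh1, 7 members were called at day 14, 4 higher and 3 lower, beside 40.6% of genes. At day 28, 8 were called, 6 higher and 2 lower, beside 56.7% of genes. Of all calls, 46.8% were higher at day 14 and 48.9% at day 28. Under quantile normalization these shares were 57.7% and 61.7%, and the median of all genes at day 28 moved to 0.154. Cdh1 transcript was not lower in Trps1F/F organoids, labelled with 2 floxed Cdh1 alleles, than in Cdh1+/F organoids. It lay at 13.58 to 13.60 and 13.50 to 13.52 at day 14, and at 13.81 to 13.94 and 13.04 to 13.16 at day 28. Trps1 differed between these genotypes as well, as given above, so they do not differ in Cdh1 alone.

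Epcam lay at 13.30 and 13.27 in Trps1+/+ organoids of day 14, at 13.84 and 13.96 in Cdh1+/F and at 14.29 and 14.28 in Trps1F/F. The 3 genotypes did not overlap. At day 28 the values were 13.32 and 13.38, then 13.30 and 13.44, then 14.27 and 14.36, so that Trps1F/F organoids alone stood apart. Epcam was higher in Trps1F/F than in Trps1+/+ organoids by 1.00 at day 14 (SE 0.0832, n = 2 and 2, adjusted p = 2.14e-06) and by 0.97 at day 28 (adjusted p = 1.72e-06). The difference of Cdh1+/F from Trps1+/+ organoids was 0.61 at day 14 (adjusted p = 8.54e-05) and 0.02 at day 28 (0.831). Between the days, Epcam fell by 0.53 in Cdh1+/F organoids (adjusted p = 0.000447).

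Prom1 encodes prominin, a glycoprotein of membrane protrusions. It lay at 10.38 and 10.30 in Trps1+/+, 11.03 and 10.92 in Cdh1+/F and 11.65 and 11.57 in Trps1F/F organoids of day 14. At day 28 it lay at 10.60 and 10.50, then 10.90 and 10.98, then 11.69 and 11.96. The genotypes kept this order on both days without overlap. Prom1 was higher in Trps1F/F than in Trps1+/+ organoids by 1.27 at day 14 (SE 0.0925, adjusted p = 7.23e-07) and by 1.28 at day 28 (4.44e-07). For Cdh1+/F organoids the differences were 0.63 (adjusted p = 0.000165) and 0.39 (0.00315).

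Tspan8 lay at 11.64 and 11.49 in Trps1+/+, 13.61 and 13.66 in Cdh1+/F and 12.68 and 12.75 in Trps1F/F organoids of day 14. At day 28 it lay at 11.43 and 11.29, then 12.86 and 12.87, then 12.95 and 12.65. Both genotypes with floxed Trps1 stood above Trps1+/+ organoids on both days. Trps1F/F organoids were higher by 1.15 at day 14 (SE 0.0987, adjusted p = 2.82e-06) and 1.44 at day 28 (3.08e-07). Cdh1+/F organoids were higher by 2.07 (adjusted p = 1.06e-08) and 1.502 (7.16e-08). Tspan8 was lower in Trps1F/F than in Cdh1+/F organoids by 0.92 at day 14 (adjusted p = 7.65e-06). At day 28 that difference was -0.07 with a 95% interval of -0.28 to 0.15, and the 2 groups overlapped. From day 14 to day 28, Tspan8 fell by 0.77 in Cdh1+/F organoids (adjusted p = 0.000128).

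Cd24a lay at 13.48 and 13.30 in Trps1+/+, 13.60 and 13.67 in Cdh1+/F and 14.07 and 14.10 in Trps1F/F organoids of day 14. Its values at day 28 were 13.65 and 13.55, then 13.33 and 13.47, then 14.45 and 14.76. Trps1F/F organoids were the highest on both days. They stood above Trps1+/+ organoids by 0.70 at day 14 (SE 0.108, adjusted p = 0.000312) and by 1.00 at day 28 (1.13e-05), and above Cdh1+/F organoids by 0.45 (0.00465) and 1.20 (7.26e-07). The Cdh1+/F differences from Trps1+/+ organoids, 0.24 at day 14 (adjusted p = 0.0989) and -0.20 at day 28 (0.135), did not pass. Under quantile normalization the latter was -0.34 and passed (adjusted p = 0.022). Cd24a rose by 0.52 from day 14 to day 28 in Trps1F/F organoids (adjusted p = 0.00329).

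The epithelial list can be set beside these 4 genes. In Trps1F/F against Trps1+/+ organoids, 5 of its 6 genes rose and 1 fell at day 14 and 3 rose at day 28, with Krt18 higher by 0.96 and 0.91. Its summed level was 45000 to 54400 normalized counts in Trps1+/+ and 71200 to 73600 in Trps1F/F organoids of day 14, and 48700 to 52800 and 74300 to 74400 at day 28. Fibroblast markers moved the other way, with all 7 lower in Trps1F/F organoids on both days. Their summed level was 89100 to 96500 and 21100 to 21600 at day 14, and 25300 to 38700 and 8100 to 9250 at day 28. The part of these lists in the differences of Epcam, Prom1, Tspan8 and Cd24a was not tested.

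**Figure D2:**
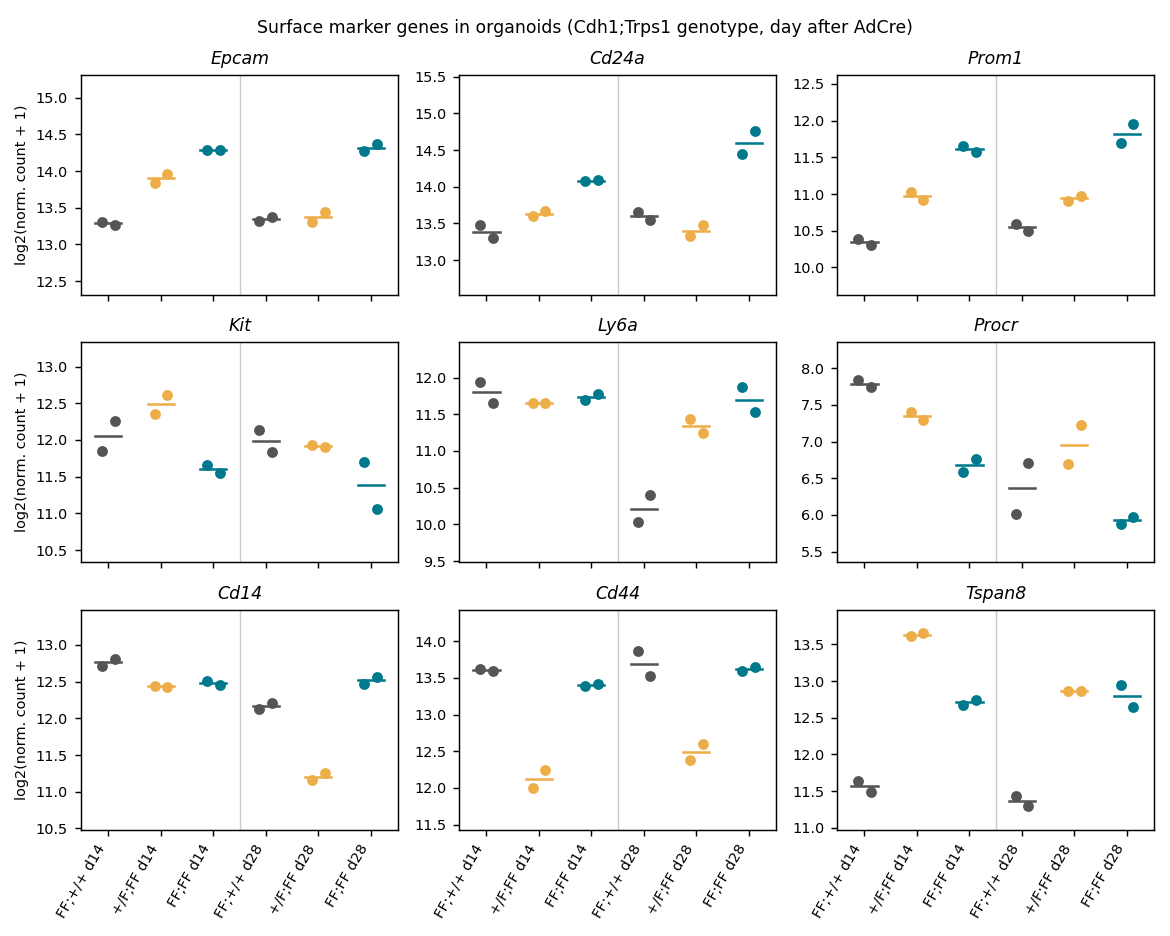
Level of each gene in the 12 organoid libraries, as log2(normalized count + 1) on the vertical axes (scales differ between panels), by Cdh1 and Trps1 genotype and day; lines are group means. Trps1F/F organoids (FF;FF) have the highest Epcam, Cd24a and Prom1, Cdh1+/F organoids (+/F;FF) the lowest Cd44, and Trps1+/+ organoids (FF;+/+) of day 28 the lowest Ly6a.

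Cd44 on both days and Cd14 at day 28 were lowest in Cdh1+/F organoids. Cd44 lay at 13.61 and 13.60 in Trps1+/+, 11.99 and 12.24 in Cdh1+/F and 13.40 and 13.41 in Trps1F/F organoids of day 14. At the later day it lay at 13.87 and 13.52, then 12.39 and 12.59, then 13.59 and 13.65. It was lower in Cdh1+/F than in Trps1+/+ organoids by 1.49 at day 14 (SE 0.115, adjusted p = 6.66e-07) and 1.21 at day 28 (2.04e-06). Against Trps1F/F organoids the gap was 1.29 (adjusted p = 1.52e-06) and 1.13 (2.37e-06). The Trps1F/F differences from Trps1+/+ organoids were -0.20 (95% interval -0.45 to 0.05) and -0.07 (-0.33 to 0.18). Cd44 rose by 0.37 between the days in Cdh1+/F organoids (adjusted p = 0.0217), a call lost without day 14 replicate a (0.196) or day 28 replicate b (0.17). Its adjusted p was 0.0623 with no variance trend. Letters name organoid replicates in column order, and in Trps1F/F organoids a and b are the replicates titled 1 and 2.

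Cdh1+/F organoids also had by far the most fibroblast marker RNA. The summed fibroblast level was 650000 to 737000 normalized counts at day 14 and 353000 to 423000 at day 28. Of the 7 fibroblast markers, 6 rose against Trps1+/+ organoids at day 14 and 7 at day 28, with a median of 3.92 on the latter day. The epithelial sum there was 50200 to 50500 and 22800 to 25700, and the basal myoepithelial sum was 49900 to 53500 and 37000 to 39500, against 102000 and 93600 to 101000 in Trps1+/+ organoids. Their part in the lower Cd44 was not tested.

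Cd14 lay at 12.72 and 12.80 in Trps1+/+, 12.44 and 12.43 in Cdh1+/F and 12.51 and 12.45 in Trps1F/F organoids of day 14. At day 28 it lay at 12.13 and 12.21, then 11.16 and 11.25, then 12.47 and 12.57. Against Trps1+/+ organoids, Trps1F/F organoids were thus lower by 0.28 at day 14 (SE 0.0732, adjusted p = 0.00942) and higher by 0.35 at day 28 (adjusted p = 0.00192). The day 14 call was lost without Trps1+/+ replicate b (adjusted p = 0.0634) or Trps1F/F replicate b (0.0775). Cdh1+/F organoids were lower by 0.33 at day 14 (adjusted p = 0.00373) and 0.96 at day 28 (2.5e-07), and Trps1F/F organoids exceeded them at day 28 by 1.31 (7.84e-09).

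Cd14 fell between the days by 0.59 in Trps1+/+ (adjusted p = 8.53e-05) and by 1.23 in Cdh1+/F organoids (1.02e-06). In Trps1F/F organoids the difference was 0.04 (0.695). The test of the day by Trps1 interaction gave 0.635 (SE 0.104, adjusted p = 0.00212). Of 6 tested macrophage and leukocyte markers, 5 fell between the days in Trps1+/+ and in Cdh1+/F organoids and 4 in Trps1F/F organoids. Their sums went from 7280 to 7760 down to 2810 to 3190 normalized counts in Trps1+/+, from 18600 to 18700 down to 4020 to 5220 in Cdh1+/F, and from 2170 to 2620 down to 787 to 1200 in Trps1F/F organoids. The last genotype thus had the least marker RNA of that class at day 28 and the most Cd14.

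Ly6a lay at 11.94 and 11.66 in Trps1+/+, 11.65 and 11.65 in Cdh1+/F and 11.70 and 11.78 in Trps1F/F organoids of day 14. By day 28 it lay at 10.03 and 10.40, then 11.44 and 11.25, then 11.87 and 11.53. The genotypes were close at day 14, and at day 28 Trps1+/+ organoids stood below both others. Between the days, Ly6a fell by 1.59 in Trps1+/+ organoids (SE 0.137, adjusted p = 4.6e-06), and its differences were -0.04 in Trps1F/F (0.84) and -0.31 in Cdh1+/F organoids (0.0893). The last passed with only the compared groups in the fit (0.0141) and under quantile normalization (0.0472). The interaction of day and Trps1 genotype was 1.54 (SE 0.194, adjusted p = 0.000543). At day 28, Ly6a was higher than in Trps1+/+ organoids by 1.48 in Trps1F/F (adjusted p = 3.13e-06) and by 1.13 in Cdh1+/F organoids (1.76e-05). Its excess in Trps1F/F over Cdh1+/F organoids, 0.35 (adjusted p = 0.0423), was not called without Cdh1+/F replicate b (0.229) or Trps1F/F replicate a (0.328), nor with no filter (0.0703), no variance trend (0.108) or quantile normalization (0.0548).

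Between the genotypes, the interferon response list did not go the way of Ly6a. Of its 12 genes, 11 fell at day 14 and 9 at day 28 in Trps1F/F against Trps1+/+ organoids, and 10 fell on each day in Cdh1+/F organoids. Summed levels at day 28 were 7450 to 7740 normalized counts in Trps1+/+, 2710 to 2850 in Cdh1+/F and 3400 to 4260 in Trps1F/F organoids. From day 14 to day 28, 7 of the 12 fell and 0 rose in Trps1+/+ organoids, where Ly6a fell too. In Trps1F/F organoids 6 fell and 0 rose, and in Cdh1+/F organoids 6 fell and 1 rose. The part of this list in the Ly6a differences was not tested.

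Procr was the least abundant member in every organoid group. It lay at 7.83 and 7.74 in Trps1+/+, 7.41 and 7.30 in Cdh1+/F and 6.58 and 6.76 in Trps1F/F organoids of day 14, and at 6.01 and 6.71, then 6.69 and 7.22, then 5.88 and 5.97 at day 28. Trps1F/F organoids were the lowest on both days. Against Trps1+/+ organoids they were lower by 1.11 at day 14 (SE 0.237, adjusted p = 0.00297), and the difference of -0.44 at day 28 did not pass (0.157). It passed without Trps1+/+ replicate a of day 28 (-0.79, adjusted p = 0.0209). The difference of 0.59 between Cdh1+/F and Trps1+/+ organoids at day 28 had adjusted p = 0.0501, and passed without Trps1+/+ replicate b (0.95, 0.0065) or Cdh1+/F replicate a (0.86, 0.0217), or with an offset of 5 (0.57, 0.0486).

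Against Cdh1+/F organoids, Procr was lower in Trps1F/F organoids by 0.68 at day 14 (adjusted p = 0.0358) and by 1.03 at day 28 (0.00233). Leaving out any of the 4 libraries of day 14 raised the first of these p-values to between 0.0791 and 0.176, with no filter or no variance trend it was 0.0578, and under quantile normalization neither was called (0.223 and 0.157). Procr fell between the days by 1.42 in Trps1+/+ organoids (adjusted p = 0.000848) and by 0.75 in Trps1F/F organoids (0.027). The latter was not called without any 1 of its 4 libraries (0.0761 to 0.14) or under quantile normalization (0.0908). The summed endothelial markers were 489 to 493 normalized counts in Trps1+/+ organoids of day 14 and 564 to 578 at day 28. They were 199 to 244 and 116 to 126 in Trps1F/F organoids, and 593 to 734 and 300 to 319 in Cdh1+/F organoids. Gene by gene, 4 of 6 endothelial markers fell between the days in Trps1+/+ organoids and 1 rose, with a median of -1.88. In Trps1F/F organoids 3 fell and 1 rose (median -0.74), and in Cdh1+/F organoids 3 fell and 0 rose (median -1.24). Their part in the Procr differences was not tested.

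Kit lay at 11.85 and 12.26 in Trps1+/+, 12.36 and 12.61 in Cdh1+/F and 11.66 and 11.54 in Trps1F/F organoids of day 14. At day 28 it lay at 12.14 and 11.84, then 11.93 and 11.91, then 11.70 and 11.06. Trps1F/F organoids were the lowest on both days, with no overlap. The difference from Trps1+/+ organoids was -0.45 at day 14 (SE 0.182, adjusted p = 0.0751), where the authors' deposited table gave -0.456 with adjusted p = 0.00123. It passed with only the compared groups in the fit (-0.45, adjusted p = 0.00452), and without Trps1+/+ replicate a (-0.66, 0.0453).

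At day 28 Kit was lower by 0.61 (adjusted p = 0.0159), a call lost without Trps1+/+ replicate a (0.104) or Trps1F/F replicate b (0.196), or with no variance trend (0.0641). It was lower in Trps1F/F than in Cdh1+/F organoids by 0.88 at day 14 (adjusted p = 0.00167) and 0.54 at day 28 (0.0219). The second call was lost without Cdh1+/F replicate a (0.0829), Cdh1+/F replicate b (0.0701) or Trps1F/F replicate b (0.28), or with no variance trend (0.0752). The fall of 0.56 between the days in Cdh1+/F organoids (0.0261) was lost without day 14 replicate b (0.16), day 28 replicate a (0.0835) or day 28 replicate b (0.101), or with no variance trend (0.0854). Mast cells make Kit too, and all 6 mast cell markers were above the floor in every group. Their summed level was 1870 to 2340 normalized counts in Trps1+/+, 11100 to 11900 in Cdh1+/F and 895 to 900 in Trps1F/F organoids of day 14, and 870 to 1530, 13300 to 13400 and 634 to 823 at day 28. Their part in the Kit differences was not tested.

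Counting the days within a genotype, 3 members fell and none rose in Trps1+/+ organoids, beside 25.9% of genes called. In Trps1F/F organoids 1 rose and 1 fell, beside 35.4%. In Cdh1+/F organoids 1 rose and 4 fell, beside 40.8%. The interaction test called 2 of the 9 members, Ly6a and Cd14, beside 17.9% of genes.

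Ligands and partners of these proteins were called in both directions. In Trps1F/F against Trps1+/+ organoids, 10 rose and 5 fell of 21 tested at day 14, and 6 rose and 5 fell at day 28. Lbp, which carries lipopolysaccharide to CD14, rose by 1.12 and 1.19. F2rl1, a protease-activated receptor, rose by 1.22 and 0.91, and Spp1 fell by 1.70 and 2.10. The other sorting antigens were also split, with 8 of 20 higher and 6 lower at day 14 and 8 higher and 8 lower at day 28. The luminal progenitor list had 4 of 10 genes higher and 3 lower at day 14 and 3 higher and 2 lower at day 28, and Aldh1a3 rose by 0.85 and 1.63.

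As a description over the 12 organoid libraries, which share genotypes and days, Epcam tracked Prom1 with Pearson r = 0.924 and Cd24a with 0.877, while Cd44 and Tspan8 ran opposite at -0.758. The genes most like Epcam were Tapbpl (0.970), Rreb1 (0.969) and Lrrc8e (0.966). Those most like Prom1 were Etv6 (0.986), Nipal4 (0.983) and Atp2b4 (0.980), and those most like Tspan8 were Serinc5 (0.978), Col26a1 (0.975) and Frem2 (0.968). Cd44 was most like Arl15 (0.987), Lama3 (0.981) and the basal gene Trp63 (0.981).

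In tumors the members divided by subgroup. The submitters' subgroup_one tumors had far more Tspan8, Epcam and Prom1 than the Trps1+/+ tumors, more Cd14 and less Procr. Of the 9 members, 5 were called, 4 higher and 1 lower, beside 15.5% of 15871 genes, and their median was 2.56 against 0.010 for all genes. Without 1 mouse at a time the count was 2 to 4: it was 3 without 17LCO103 or 18LCO003 and 2 without 18LCO114 or 18LCO128. The subgroups come from the submitters and may rest on the expression of these tumors, so a difference between a subgroup and the rest is not independent evidence. The 2 subgroup_one tumors of mouse 18LCO025 were averaged for the subgroup tests. Its subgroup_three tumor entered the same model as a separate unit. For the test of genotype all 3 of its tumors were averaged, and fits with each tumor as a unit averaged none.

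Tspan8 lay at 6.84, 5.98 and 5.84 in the 3 Trps1+/+ tumors and at 12.86, 13.75, 14.27 and 13.51 in the 4 subgroup_one tumors. It was higher in all of subgroup_one, by 7.28 (SE 0.58, n = 3 and 3 mice, adjusted p = 0.000678), a 156-fold difference. The call held without any 1 mouse. The submitters' subgroup_two lay between, at 9.94 and 7.56, and subgroup_three lay at 6.26 and 6.52, among the Trps1+/+ values. The subgroup_two difference of 2.53 had adjusted p = 0.21, while the authors' deposited table gave 2.917 with adjusted p = 0.000871.

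Epcam lay at 11.31, 4.42 and 4.64 in the Trps1+/+ tumors and at 14.45, 14.76, 14.72 and 14.31 in subgroup_one. All 4 stood above the highest Trps1+/+ tumor, of mouse 18LCO046, which itself stood apart from its group. The difference was 7.79 (SE 1.57, adjusted p = 0.0143). The call was lost without 18LCO025 (adjusted p = 0.062), 18LCO114 (0.0515) or 18LCO128 (0.053). The submitters' subgroup_two lay at 5.75 and 5.33 and subgroup_three at 6.44 and 5.66, inside the Trps1+/+ range.

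Prom1 lay at 5.61, 2.96 and 5.24 in the Trps1+/+ tumors and at 11.02, 11.51, 8.84 and 7.40 in subgroup_one, where the 2 lowest values were both of mouse 18LCO025. It was higher in subgroup_one by 5.61 (SE 1.02, adjusted p = 0.00981). The submitters' subgroup_two lay at 2.95 and 1.57, from 6 and 2 reads, and subgroup_three at 4.53 and 5.64. The lowest Trps1+/+ tumor had 7 reads, so these low values lie near the floor of 3 reads and do not set subgroup_two apart.

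Cd14 lay at 10.63, 10.40 and 10.63 in the Trps1+/+ tumors and at 12.63, 13.97, 12.05 and 11.75 in subgroup_one. It was higher by 2.28 (SE 0.59, adjusted p = 0.0352). Procr lay at 9.06, 8.20 and 8.42 and at 7.54, 7.73, 7.21 and 6.99, and was lower by 1.10 (SE 0.295, adjusted p = 0.0388). Neither pair of groups overlapped, yet neither call was firm. The Cd14 call was lost without 17LCO103 (adjusted p = 0.076), 18LCO003 (0.0931), 18LCO046 (0.0704), 18LCO114 (0.109) or 18LCO128 (0.0927), or with no variance trend (0.0506). That of Procr was lost without 17LCO103 (0.0851), 18LCO003 (0.0646), 18LCO025 (0.095), 18LCO046 (0.0971), 18LCO114 (0.0591) or 18LCO128 (0.089).

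Kit lay at 9.0, 9.16 and 9.24 in the Trps1+/+ tumors and at 11.24, 11.06, 13.57 and 11.98 in subgroup_one. The groups did not overlap, and the difference of 2.56 had adjusted p = 0.0597. The authors' deposited table gave 3.209 with adjusted p = 0.00019. Cd24a lay at 10.997, 9.18 and 7.63 and at 12.34, 12.43, 13.54 and 12.60, a difference of 3.34 with adjusted p = 0.072, which was 0.0436 without 18LCO046. The authors' deposited table gave 2.936 with adjusted p = 0.0051. How that table treated the tumors of mouse 18LCO025 is not stated. With each tumor as a unit, Kit and Cd24a passed here too (adjusted p = 0.0333 and 0.0367), as they did under quantile normalization (0.038 and 0.0492).

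Ly6a lay at 11.43, 12.01 and 11.93 in the Trps1+/+ tumors and at 10.28, 8.86, 11.43 and 10.59 in subgroup_one. Its difference of -1.74 did not pass (adjusted p = 0.0909), and passed without 18LCO025 (-2.22, 0.0343). Cd44 was high in all 11 tumors, between 12.67 and 14.75. Its difference was -0.42, with a 95% interval of -1.16 to 0.31.

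**Figure D3:**
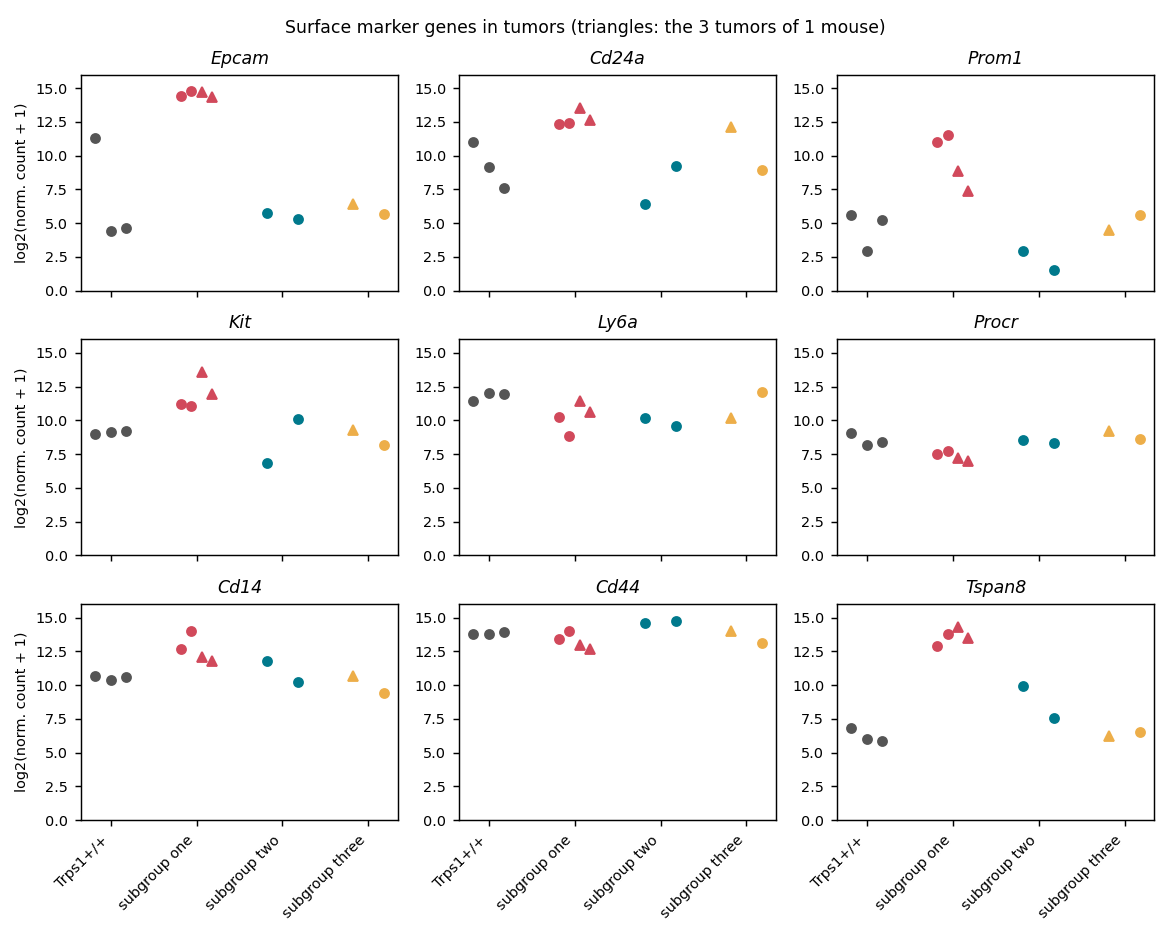
Level of each gene in the 11 tumors, as log2(normalized count + 1) on the vertical axis, by genotype and subgroup; triangles are the 3 tumors of mouse 18LCO025. Tspan8 and Epcam lie above 12 in every subgroup_one tumor, and 1 Trps1+/+ tumor stands apart at 11.31 for Epcam.

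No member was called in subgroup_two (0.0% of 15871 genes called, 2103 at an unadjusted p under 0.05) or in subgroup_three (0.0063% called, 1 gene, and 957 unadjusted). Their member medians were -0.67 and -0.28. With all 6 Trps1F/F mice against the 3 Trps1+/+ mice, no member was called either, beside 0.0% of 15423 genes, with 805 at an unadjusted p under 0.05. Tspan8 differed there by 4.11, Epcam by 2.84 and Prom1 by 2.00, and Ly6a by -1.51. All 9 adjusted p-values were 0.8 or more. The 95% interval of the Cd44 difference was -0.87 to 0.90 and that of Epcam -3.27 to 8.95.

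Other epithelial genes stood high in the same subgroup_one tumors. Of 10 luminal progenitor genes 8 rose, with a median of 7.35, and Sox10 rose by 7.41, Lcn2 by 7.29 and Mfge8 by 2.08. Their summed level was 66700 to 132000 normalized counts, against 5800 to 12300 in Trps1+/+ tumors. Of 6 epithelial genes 2 rose, Krt19 by 6.36 and Cdh1 by 4.46. Cdh1, floxed in all of these mice, lay at 12.76 to 13.74 in subgroup_one and at 7.02 to 10.64 in Trps1+/+ tumors. The epithelial sum was 48200 to 82800 and 10000 to 32400.

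Of 8 macrophage and leukocyte markers 4 fell, among them Adgre1 by 1.79, while Cd14, a marker of luminal progenitors that macrophages make too, was higher. Their sum was 23800 to 37400 in subgroup_one and 82900 to 107000 in Trps1+/+ tumors. Endothelial sums did not overlap, at 2960 to 7230 in subgroup_one and 10700 to 14000 in Trps1+/+ tumors. Of 6 endothelial markers, 1 was called lower and 0 higher, with a median of -1.36. Fibroblast sums overlapped, at 79100 to 621000 and 391000 to 1100000, and mast cell sums ran from 13.4 to 4950 and from 744 to 2830. The part of these lists in the member differences was not tested.

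**Figure D4:**
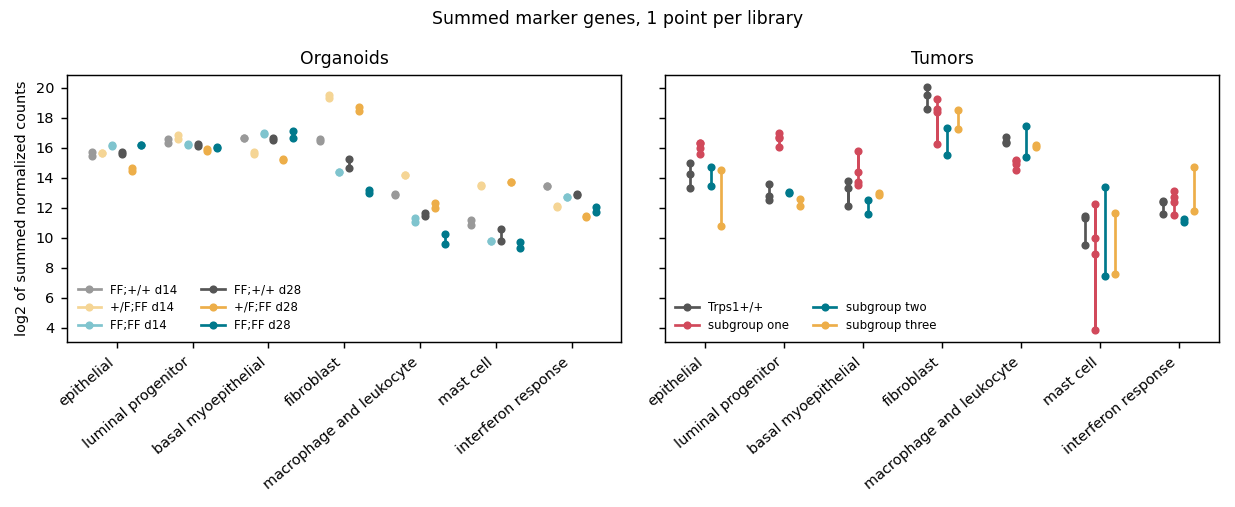
Summed normalized counts of each marker list, as log2 on the vertical axis, in organoids (left) and tumors (right), with 1 point per library. Fibroblast and mast cell sums are highest in Cdh1+/F organoids, and luminal progenitor sums are highest in subgroup_one tumors, at 66700 to 132000 normalized counts.

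Among the ligands and partners, 7 of 21 rose and 2 fell in subgroup_one. The gains included Spint1 (6.63) and St14 (5.87), a protease inhibitor and its protease at epithelial surfaces, and Lbp (3.29). Of the other sorting antigens 4 of 20 rose and none fell, among them Ly6d by 6.20 and Dll1 by 4.42. Over the 11 tumors, 3 of them from 1 mouse, genes with a pattern like that of Epcam included Rab25 (0.994) and Crb3 (0.993), and Epcam tracked Tspan8 at r = 0.876 and Prom1 at 0.868. Those most like Tspan8 were Zfyve27 (0.982), Gps2 (0.980) and Cmc4 (0.979).

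**Figure D5:**
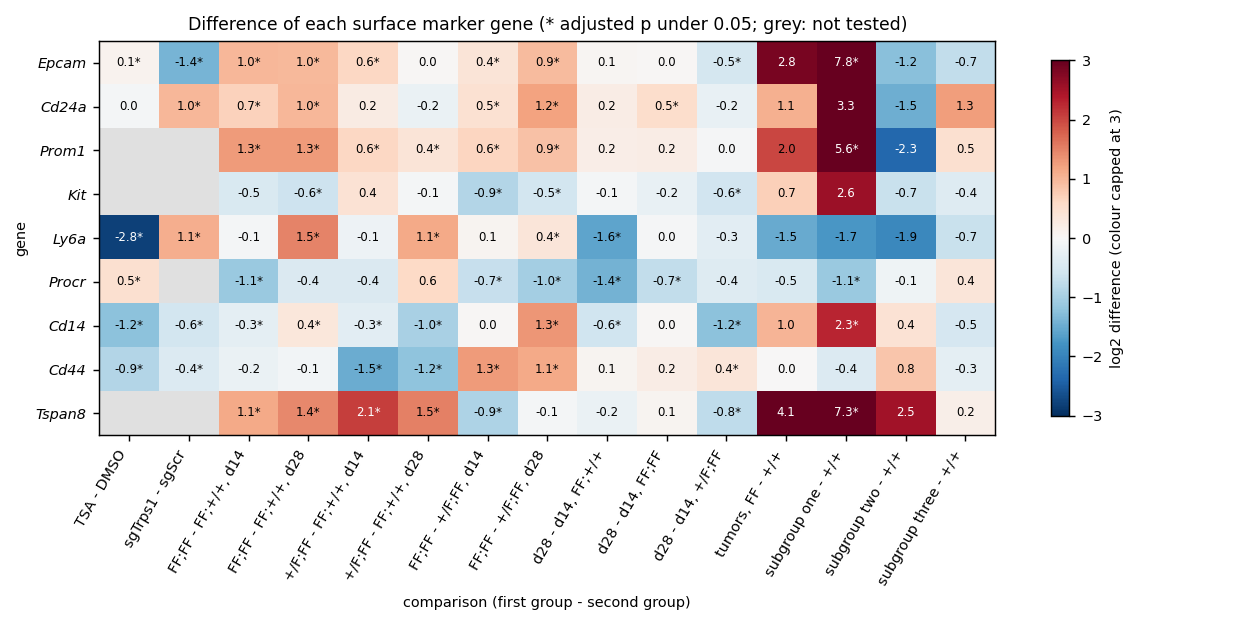
Log2 difference of each gene (rows) in each comparison (columns, first group minus second), with the colour capped at 3, asterisks for adjusted p under 0.05 and grey for genes not tested. Epcam is lower with sgTrps1 in HC11 cells (-1.403), higher in Trps1F/F organoids (1.00 and 0.97) and higher in subgroup_one tumors (7.79).

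Set side by side, with each table fitted on its own, Epcam fell with sgTrps1 in HC11 cells and rose in Trps1F/F organoids and subgroup_one tumors. In Cdh1+/F organoids, whose Trps1 alleles are floxed too, Epcam was called higher at day 14 and not at day 28. Cd24a rose with sgTrps1 and in Trps1F/F organoids, and its Cdh1+/F differences from Trps1+/+ organoids did not pass on either day. Ly6a fell with Trichostatin A, rose with sgTrps1, and was higher in Trps1F/F and Cdh1+/F than in Trps1+/+ organoids at day 28. Cd14 fell in both HC11 comparisons and in Trps1F/F organoids of day 14, and rose in those of day 28 and in subgroup_one tumors. The Cd14 calls with sgTrps1, at day 14 and in subgroup_one were not firm. Each was lost on leaving out certain single libraries or mice, as was the Epcam call in subgroup_one. No test was run across the tables.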

How the data were processed

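Total RNA with an integrity number above a stated minimum was sequenced after Illumina TruSeq preparation, per the labels' protocols. Reads were processed with TopHat and HTSeq on GRCm38, per the submitters' processing notes, with versions, strand setting and normalization not given in the sources used here. The authors deposited log2(normalized count + 1) values and tables of log2 fold changes with adjusted p-values. Every value was a whole number of reads in a fixed step per library (tolerance 0.01 reads or 1e-05 of the value), which gave the depths and read numbers but entered no test. Rows whose symbols had turned into dates (12 to 13 per table) and a row without symbol in 2 tables were left out. Headers were shared by 8 of 12 organoid columns, which were mapped to their group only.

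Each table was fitted on its own with limma 3.58.1 (R 4.3.3), with a variance trend and Benjamini-Hochberg adjustment over all genes kept. Organoids shared 1 model over 6 groups. Tumors of a mouse were averaged within a group. SEs and 95% intervals are limma's. Levels per kilobase used GENCODE M21 exon lengths. Alternatives were no filter, an offset of 5, no variance trend, a common median, quantile normalization, only the groups compared, the replicate number as a block, each tumor as a unit, and leaving out each library or mouse. The guides were also fitted relative to chromosome 10. Crossed replicate numbers for the guides, and a block for the Trps1F/F organoid days, were chosen after seeing the data. The fits were tested on simulated data. Members and gene lists were chosen with earlier results of these data known. Named list genes were at most 3 per list and comparison with the smallest p among those called, and likeness was ranked by Pearson r over genes kept. An item withheld from the text is not reported here. Replicate libraries differed beyond counting noise, so none was counted as a copy. Chi-square per degree of freedom was 1.51 to 7.27 for Trichostatin A, 3.62 to 10.3 for the guides and 7.86 to 18.3 for organoids. Between different tumors of a group it was 71.2 to 195.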

Additional observations from a re-analysis of the deposited data

Results flagged for a closer look

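The change of Ly6a from day 14 to day 28 differed between Trps1F/F and Trps1+/+ organoids by 1.545, and that of Cd14 by 0.635, by the interaction test. These were the 2 members that passed it. Ly6a moved by -1.59 in Trps1+/+ and -0.04 in Trps1F/F organoids, and Cd14 by -0.59 and 0.04.

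In 5 further cases, 2 differences had opposite signs and neither had overlapping groups. Such cases were not tested, and the share of all genes that meet this rule is not given. Some gaps were narrow. At day 14, Ly6a reached 11.654 in Cdh1+/F organoids and began at 11.656 in Trps1+/+ organoids. In Trps1+/+ organoids, Epcam reached 13.300 at day 14 and began at 13.316 at day 28. The Cd24a differences of Cdh1+/F from Trps1+/+ organoids had not passed on either day. Epcam changed between the days by 0.591 more in Trps1+/+ than in Cdh1+/F organoids. Cd24a changed by 0.445 more in Trps1+/+ and by 0.75 more in Trps1F/F than in Cdh1+/F organoids. The Cdh1+/F difference of Cd24a from Trps1+/+ organoids was larger by 0.445 at day 14 than at day 28. That is the same contrast as the 0.445 between the days, written the other way, and no separate observation. The Cdh1+/F difference of Ly6a was lower at day 14, by -1.277. Organoid replicates were few, with 2 libraries per group.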

How the results depend on the processing

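Of 1229 member values under another setting, 1118 kept their direction and side of the threshold, 61 lost a call, 25 gained one and 25 turned. These are settings of 113 reported member values. Members not called in the interaction test, in subgroup_two or in subgroup_three were left out, except Tspan8 in subgroup_two. Of the last, 24 had not passed as reported and 1 had, Procr with Trichostatin A, which was -0.19 under quantile normalization. Turned values without 1 library ran as follows. Trps1F/F less Trps1+/+ organoids gave -0.20 to 0.082 for Ly6a at day 14 and -0.25 to 0.10 for Cd44 at day 28. Cdh1+/F less Trps1+/+ at day 28 gave -0.045 to 0.093 for Epcam, with -0.029 at a common median and -0.11 under quantile normalization, and -0.22 to 0.079 for Kit. Trps1F/F less Cdh1+/F at day 28 gave -0.22 to 0.087 for Tspan8. Day 28 less day 14 gave -0.082 to 0.26 for Cd44 and -0.26 to 0.14 for Kit in Trps1+/+ organoids, where Kit was 0.026 under quantile normalization. In Trps1F/F organoids it gave -0.066 to 0.24 for Tspan8, -0.21 to 0.13 for Ly6a, -0.015 to 0.076 for Epcam, -0.008 to 0.09 for Cd14 and -0.54 to 0.10 for Kit, and in Cdh1+/F organoids -0.088 to 0.023 for Prom1. Tumor genotype gave -0.17 to 0.16 for Cd44, and -0.15 with each tumor as a unit. The cause was not tested.

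Counts of members called without 1 library were 3 to 5 with Trichostatin A, 1 to 3 between the days in Trps1F/F organoids (1 under quantile normalization) and 3 to 4 in Cdh1+/F organoids (3 without a variance trend). Without 1 mouse the count in subgroup_one was 2 to 4. With the replicate number as a block, 4 members were called with Trichostatin A (Epcam lost, adjusted p = 0.0617) and 5 with the guides. Same-numbered libraries did not deviate together (r of -0.169, 0.047 and -0.155 with Trichostatin A, -0.224 with the guides). Differently numbered Trichostatin A libraries had r of -0.12 to 0.223. With 2 libraries per group, the crossed guide value of 0.224 mirrors the other by construction. These values showed no pairing by number, and cannot settle whether libraries were paired. Crossed guide numbers gave 5 members and 8814 genes called, against 8255 with the block and 8413 without. Of the organoid columns, those of Trps1F/F carry replicate numbers. Same-numbered libraries of the 2 days had r of 0.021, which does not settle pairing either. With the replicate block and only these 2 groups, chosen after seeing the data, 5 members were called between the days against 2, and 6328 genes against 5350 without the block. No paired analysis was possible because of missing numbers in the other organoid comparisons, and in tumors because no mouse stands in both groups of a comparison. Relative to chromosome 10, 18.2% of guide calls were higher, against 51.6%, with a median of all genes of -0.391. Prom1, Kit and Tspan8 had few reads in HC11 cells, where low depth and absent transcript cannot be told apart.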

Other observations

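Levels of the other members followed other genes across libraries, given here as values only. Over the 12 organoid libraries, Kit was most like Alox5ap (r = 0.929), Aldh18a1 (0.925) and Fes (0.925), and Procr was most like Plac8 (0.965), Sulf1 (0.956) and Colec10 (0.956). Kit and the mast cell list were both measured well above the floor in every organoid group. Over the 11 tumors, Cd14 was most like Glt28d2 (0.964), Trf (0.963) and Minar1 (0.962), and Procr ran opposite to Tspan8 (-0.842) and Kit (-0.800).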
